A study of Mus musculus with 64 samples.

Results

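Saa3, Acod1, Clec4e, Slpi, Plaur and Hp are 6 genes of acute inflammation among the 5647 genes of a table of mouse microglial transcriptomes. They were chosen from the ageing comparisons of the PBS-treated males, in which Acod1, Clec4e, Slpi and Plaur were higher at 16 than at 12 months, Saa3 was lower at 24 than at 19 months and Hp was lower at 9 than at 3 months. The male values are therefore given as a description with no test. That rule did not use the responses to LPS or the ageing of the females, and these were tested, although earlier results of both were known when the genes were chosen.

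The microglia came from wild-type C57BL/6J mice, an inbred laboratory strain, and were sorted as live CD11b+ cells with low CD45 from brains without the cerebellum. Each of the 64 libraries held the cells of 1 mouse. PBS, the vehicle, was given to females at 3 months (4 mice), 6 months (2), 9 months (3), 12 months (4), 14 months (5), 16 months (5) and 24 months (3). Males at 3, 6 and 9 months (4 mice each), 12 months (2), 16 months (4), 19 months (5) and 24 months (4) were likewise given PBS. LPS, a bacterial cell wall component, was injected intraperitoneally at 0.5 mg/kg into females of 3, 14 and 24 months (3, 5 and 3 mice), whose microglia were collected 2 hours later. The LPS libraries analysed here are all from females.

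Acute inflammation begins when receptors such as TLR4, which senses LPS, activate the transcription factor NF-kB and, with it, members of the C/EBP and AP-1 families. The genes switched on include secreted acute-phase proteins, protease inhibitors, receptors for microbes and damaged cells, and enzymes that change the metabolism of the activated macrophage. Of the 6 genes, Saa3 encodes a serum amyloid A protein made by activated macrophages and Hp encodes haptoglobin, which binds free haemoglobin. Acod1 (also called Irg1) encodes the mitochondrial enzyme that makes itaconate from cis-aconitate. Clec4e encodes Mincle, a C-type lectin receptor for mycobacterial glycolipids and for dead cells. Plaur encodes the urokinase receptor and Slpi a secreted inhibitor of neutrophil elastase. Neutrophils and monocytes also express several of these genes, Hp, Slpi, Plaur and Clec4e among them.

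The 6 genes lie on 5 chromosomes, with Saa3 and Plaur far apart on the same one. In GENCODE vM21 on GRCm38, Saa3 spans chr7:46711998-46715700 and Plaur chr7:24462484-24475968. Acod1 spans chr14:103046977-103056573, Clec4e chr6:123281789-123289870, Slpi chr2:164354070-164389095 and Hp chr8:109575128-109579172. RefSeq promoters (GRCm38.p6) were found for 5 of the 6 genes, all but Hp, and are shown because these genes were high in the same libraries. Each runs 5′ to 3′ on the strand of the gene, from 250 to 41 bases before the annotated start. For Slpi that start lies far inside the GENCODE span given above and not near the 5′ end of the span. The windows are chr7:46715717-46715926 (minus strand) for Saa3, chr14:103046762-103046971 (plus strand) for Acod1, chr6:123289912-123290121 (minus strand) for Clec4e, chr2:164356548-164356757 (minus strand) for Slpi and chr7:24462233-24462442 (plus strand) for Plaur. Capitals mark matches on either strand to GGNNNTTCC (NF-kB), TTNNGNAA (C/EBP) or TGANTCA (AP-1).
Saa3: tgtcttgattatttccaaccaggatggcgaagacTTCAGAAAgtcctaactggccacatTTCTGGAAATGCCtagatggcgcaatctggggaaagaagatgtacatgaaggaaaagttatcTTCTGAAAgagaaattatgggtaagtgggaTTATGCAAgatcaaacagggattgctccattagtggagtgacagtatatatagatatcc
Acod1: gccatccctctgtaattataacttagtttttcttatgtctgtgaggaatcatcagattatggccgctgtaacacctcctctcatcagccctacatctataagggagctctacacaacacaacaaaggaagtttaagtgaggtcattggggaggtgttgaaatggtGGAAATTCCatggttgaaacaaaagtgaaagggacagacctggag
Clec4e: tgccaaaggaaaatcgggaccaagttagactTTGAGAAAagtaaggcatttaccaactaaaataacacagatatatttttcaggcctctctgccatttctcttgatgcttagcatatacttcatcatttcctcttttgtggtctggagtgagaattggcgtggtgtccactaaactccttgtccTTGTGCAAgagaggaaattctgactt
Slpi: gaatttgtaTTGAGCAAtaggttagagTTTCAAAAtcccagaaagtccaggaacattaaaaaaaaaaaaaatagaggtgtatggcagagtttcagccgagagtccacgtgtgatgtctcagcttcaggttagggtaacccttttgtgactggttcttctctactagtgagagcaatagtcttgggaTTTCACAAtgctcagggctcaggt
Plaur: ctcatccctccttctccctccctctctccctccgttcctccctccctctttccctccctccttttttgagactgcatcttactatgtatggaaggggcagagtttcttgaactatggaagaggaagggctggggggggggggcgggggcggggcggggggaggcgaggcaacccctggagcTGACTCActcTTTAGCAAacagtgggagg

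The NF-kB letters were found in Acod1, at −85 to −77 from the start, and in Saa3, at −187 to −179 on the opposite strand. The match in Saa3 overlaps a C/EBP match at −191 to −184. Saa3 held 4 C/EBP matches, Slpi 3, Clec4e 2 and Plaur 1, and Plaur also held the 1 AP-1 match, at −69 to −63. Of 32817 RefSeq promoters, 12.8% held the NF-kB letters in a window of this length, 33.3% the C/EBP letters and 5.84% the AP-1 letters. A match of letters is a description and not a binding site.

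The values are the FPKM of the authors after their batch adjustment, rounded to whole numbers for nearly all genes, and are called adjusted FPKM here. FPKM is scaled to gene length, so that levels of different genes can be set side by side, but the number of reads behind a value is not known. In 21 libraries no value lay between 0 and 1. These were all females of 16 months, 2 males of 3 months, every male of 12, 16 or 24 months, and 4 of the 5 that were 19 months old. Library sums ran from 408457 to 554459. The microglial marker P2ry12 ranged from 733 to 3514 over the groups, and all 10 microglial markers of the list used here were measured. Hp had the highest mean over the 64 libraries (73.1), followed by Plaur (70.3), Slpi (48.3), Saa3 (20.5), Clec4e (20.3) and Acod1 (15.1). Only genes with a mean of at least 10 are in the table. Over the 32 PBS libraries of up to 14 months the means of Saa3, Acod1 and Clec4e were 0.601, 0.638 and 5.97. These 3 genes are therefore in the table through the later ages and LPS, and their number is no evidence that such genes vary more than others.

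**Figure D1:**
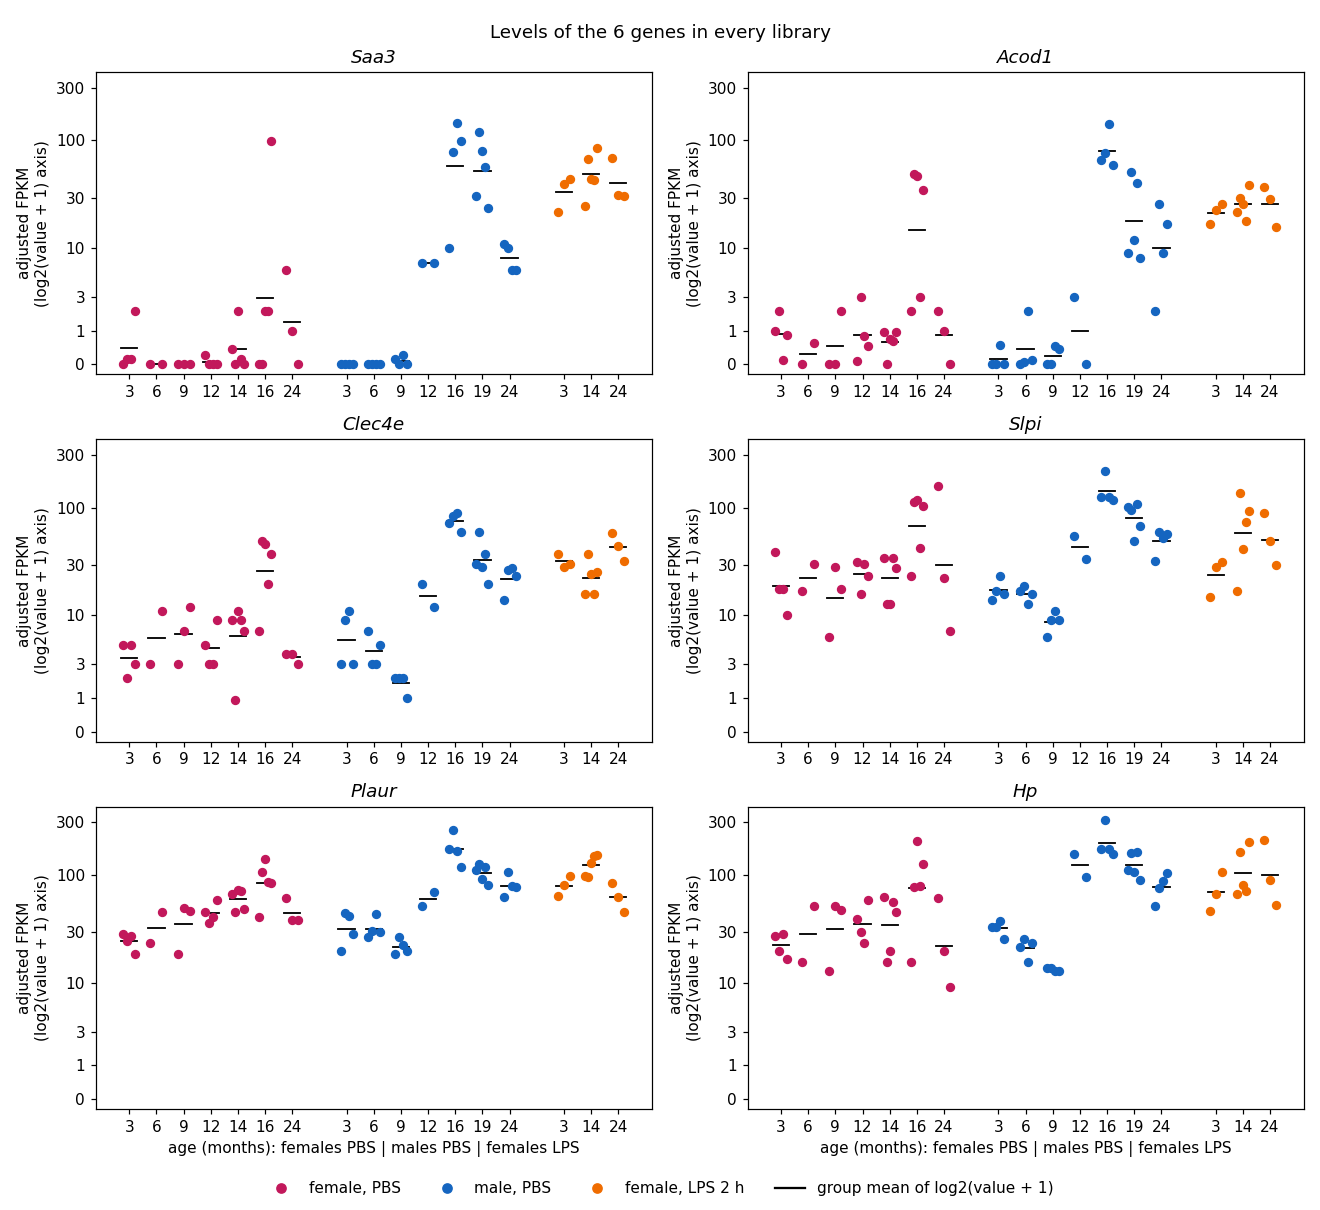
Adjusted FPKM of the 6 genes in each of the 64 libraries (y axis, spaced as log2(value + 1)) by age in months, for PBS females, PBS males and LPS females. Each point is 1 mouse and black bars are means of log2(value + 1). Saa3 and Acod1 lie at 3 or below in all 32 PBS libraries of up to 14 months except for both 12-month males, where Saa3 is at 7, and lie at 16 or above in all 11 LPS libraries.

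LPS raised Saa3, Acod1 and Clec4e at all 3 ages, Plaur at 3 and 14 months and Hp at 24 months, whereas Slpi did not pass the test at any age. In PBS-treated females of 3 months Saa3 stood at 0, 0.11, 0.11 and 2, and after LPS at 22, 40 and 45. At 14 months its values were 0.38, 0, 2, 0.12 and 0 with PBS and 25, 68, 45, 44 and 86 with LPS. At 24 months they were 6, 1 and 0 with PBS and 70, 32 and 31 with LPS. No LPS library overlapped a PBS library at any of these ages. On the log2(value + 1) scale, which understates the change of a low gene, Saa3 rose by 4.66 (SE 0.57, limma adjusted p = 8.0e-06), 5.21 (SE 0.47, limma adjusted p = 2.7e-07) and 4.13 (SE 0.61, limma adjusted p = 0.00025) at 3, 14 and 24 months.

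Acod1, the itaconate-making enzyme, was close to 0 in the same controls. It stood at 1, 2, 0.08 and 0.82 with PBS at 3 months and at 17, 23 and 26 with LPS. At 14 months it stood at 0.96, 0, 0.67, 0.61 and 0.95 with PBS and at 22, 30, 26, 18 and 39 with LPS. At 24 months it stood at 2, 1 and 0 with PBS and at 38, 29 and 16 with LPS. Again the groups did not overlap. The log2 fold changes were 3.61 (SE 0.46, limma adjusted p = 1.3e-05), 4.09 (SE 0.38, limma adjusted p = 3.0e-07) and 3.90 (SE 0.50, limma adjusted p = 5.3e-05).

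Clec4e, the lectin receptor Mincle, was low but measured in all controls. At 3 months it stood at 5, 2, 5 and 3 with PBS and at 38, 29 and 31 with LPS. At 14 months the PBS values were 9, 0.92, 11, 9 and 7 and the LPS values 16, 38, 25, 16 and 26. At 24 months the PBS values were 4, 4 and 3 and the LPS values 59, 45 and 33. The groups did not overlap at any age. Clec4e rose by 2.88 (SE 0.44, limma adjusted p = 0.00011), 1.75 (SE 0.36, limma adjusted p = 0.011) and 3.29 (SE 0.47, limma adjusted p = 0.00019) on the log2 scale. With the 14-month groups fitted alone the change at that age did not pass (limma adjusted p = 0.125), and over 19 alternatives the limma adjusted p ran from 0.00267 to 0.125.

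Plaur, the urokinase receptor, started from a higher level. With PBS it stood at 29, 25, 28 and 19 at 3 months, at 68, 46, 74, 72 and 49 at 14 months and at 62, 39 and 39 at 24 months. With LPS it stood at 65, 81 and 99 at 3 months, at 98, 97, 129, 150 and 152 at 14 months and at 85, 64 and 46 at 24 months. The groups did not overlap at 3 and 14 months, and at 24 months LPS replicate 3 lay among the controls. The log2 fold change was 1.65 (SE 0.24, limma adjusted p = 5.9e-05) at 3 months and 1.01 (SE 0.20, limma adjusted p = 0.0068) at 14 months. At 24 months it was 0.46 (SE 0.25, limma adjusted p = 0.233), which did not pass.

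Hp, haptoglobin, was higher in every LPS library than in every control at 3 and 14 months, yet did not pass there. At 3 months it stood at 28, 20, 29 and 17 with PBS and at 47, 68 and 107 with LPS (log2 fold change 1.57, SE 0.54, limma adjusted p = 0.056). At 14 months it stood at 63, 16, 20, 57 and 46 with PBS and at 67, 161, 81, 72 and 198 with LPS (log2 fold change 1.54, SE 0.44, limma adjusted p = 0.064). At 24 months, where 1 of the LPS libraries lay below the highest control, the PBS values were 62, 20 and 9 and the LPS values 209, 91 and 54. This change passed (log2 fold change 2.11, SE 0.57, limma adjusted p = 0.023), but not without PBS replicate 2 or 3 or LPS replicate 1 (limma adjusted p = 0.069, 0.102 and 0.124), nor with these groups fitted alone (limma adjusted p = 0.082), with a range of 0.00935 to 0.124 over 16 alternatives. At 3 months Hp passed when the 2 groups were fitted alone (limma adjusted p = 0.0003), after either scaling, with a pseudocount of 5 and with only genes of a mean of 50 or more (limma adjusted p = 0.043 to 0.047), and over 17 alternatives the limma adjusted p ran from 0.0003 to 0.239. At 14 months it passed without PBS replicate 1, with a pseudocount of 5 and with only genes of a mean of 50 or more (limma adjusted p = 0.046 to 0.048), with a range of 0.0459 to 0.196 over 20 alternatives.

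Slpi, the elastase inhibitor, varied widely within groups. With PBS it stood at 40, 18, 18 and 10 at 3 months, at 35, 13, 13, 35 and 28 at 14 months and at 159, 23 and 7 at 24 months. With LPS it stood at 15, 29 and 32 at 3 months, at 17, 135, 42, 75 and 93 at 14 months and at 90, 50 and 30 at 24 months. The groups overlapped at all 3 ages. Its log2 fold changes of 0.32 (SE 0.70), 1.34 (SE 0.58) and 0.74 (SE 0.75) were at limma adjusted p = 0.817, 0.252 and 0.543.

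**Figure D2:**
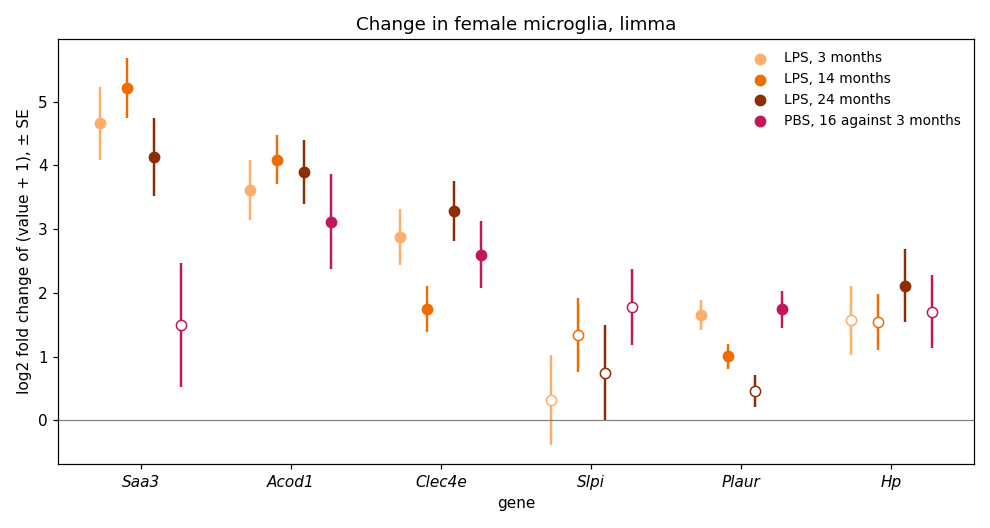
Log2 fold change of (value + 1) with its SE (y axis) for each gene, for LPS against PBS at 3, 14 and 24 months and for PBS-treated females of 16 against 3 months. Filled points passed limma (adjusted p under 0.05, over 1.5-fold) and open points did not. Saa3 is at 4.13 to 5.21 after LPS and at 1.49 between 16 and 3 months, and Slpi is open throughout.

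At each age 4 of the 6 genes passed upward. Over all 5647 genes 6.16% passed upward at 3 months, 1.4% at 14 and 4.27% at 24 months. In either direction 635, 102 and 548 genes passed, 348, 79 and 241 of them upward. The median log2 fold change of the 6 genes was 2.26, 1.65 and 2.70, and that of all genes −0.14, 0.02 and −0.15. After median-ratio scaling the medians of all genes were −0.03, −0.01 and −0.03, and 441 of 586 genes passed upward at 3 months and 366 of 511 at 24 months, in place of 348 of 635 and 241 of 548. Every LPS library lay above every control for 5 genes at 3 months, 5 at 14 months and 3 at 24 months, whereas 12.2%, 2.16% and 9.28% of all genes did so.

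Whether the response to LPS changed with age was tested as a difference between responses. None of the 6 genes passed with limma between 14 and 3 months, 24 and 3 months or 24 and 14 months, where 0.301%, 0.0% and 1.19% of all genes passed. At an unadjusted p under 0.05 was 1 of the 6 genes in each of these comparisons, a share near that of all genes (10.2%, 11.6% and 17.8%). Plaur responded less at 24 than at 3 months by 1.19 (SE 0.35, limma adjusted p = 0.177) and less at 14 than at 3 months by 0.64 (SE 0.31, limma adjusted p = 0.476), neither of which passed. For Clec4e the response at 24 months exceeded that at 14 months by 1.54 (SE 0.60, limma adjusted p = 0.171), and without 14-month PBS replicate 2, the library in which Clec4e stood at 0.92, by 2.02 (limma adjusted p = 0.021, range over 25 alternatives 0.0212 to 0.296). For Saa3 and Acod1 the differences between ages lay between −1.08 and 0.55 with SEs of 0.60 to 0.83.

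The sorted cells also held transcripts of other blood cells, and in bulk RNA fewer cells of a type and less RNA per cell cannot be told apart. Of 20 neutrophil markers 17 were measured, and Ly6g, which defines these cells, is not analysed here. Their summed level was 7201 to 19053 in the 3-month controls and 2251 to 3905 after LPS at that age, with no overlap, and 10 of the 17 fell and 0 rose. Saa3, Acod1, Clec4e, Plaur and Hp were higher in every one of these LPS libraries than in the controls, and Slpi overlapped. At 14 months the sum was 2362 to 6755 with PBS and 2112 to 4463 with LPS, and 0 of the 17 passed. At 24 months it was 3373 to 8999.9 with PBS and 4192, 10282 and 16567 with LPS replicates 3, 2 and 1, and 3 rose. All 6 genes followed the same order in these 3 LPS libraries, with Hp at 54, 91 and 209 and Slpi at 30, 50 and 90. Saa3 was at 31, 32 and 70, Acod1 at 16, 29 and 38, Clec4e at 33, 45 and 59 and Plaur at 46, 64 and 85. Of the granulocyte enzymes Mpo stood at 23 to 116 and Elane at 16 to 75 in the 3-month controls, and at 0 to 18 and 3 to 12 after LPS. Of 9 measured monocyte markers 2 rose and 1 fell at 3 months and 0 passed at 14 and 24 months. Ccr2, which defines monocytes recruited from blood, stood at 29 to 43 in the 3-month controls and at 13 to 19 after LPS, and Ly6c2 at 30 to 100 and 33 to 83. Of the 10 microglial markers 4 fell with LPS at 3 months, when their sum was 18203 to 21804 against 24857 to 26494, 1 fell at 14 months and 0 at 24 months. Of 3 T and NK cell markers 1 rose at 3 months, 1 fell at 14 and 2 fell at 24 months. The part of these cells in the responses was not tested.

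Without LPS, Saa3, Acod1 and Clec4e were low in the female microglia until 16 months, whereas the other 3 genes were measured throughout. From 6 to 14 months Saa3 reached 2 in 1 library and lay at 0.38 or below in the rest, Acod1 lay between 0 and 3 and Clec4e between 0.92 and 12. In the same libraries Plaur ranged from 19 to 74, Hp from 13 to 63 and Slpi from 6 to 35. At 16 months Acod1 stood at 2, 50, 48, 3 and 35 and Clec4e at 7, 50, 47, 20 and 38 in replicates 1 to 5. Replicates 2, 3 and 5 were high for both genes, and replicate 1 was low for all 6. Plaur stood at 42, 106, 141, 87 and 85, Slpi at 24, 112, 118, 43 and 104 and Hp at 16, 79, 204, 80 and 127. Saa3 departed from this order, with 98 in replicate 5 and 0, 0, 2 and 2 in replicates 1 to 4. So in replicates 2 and 3 Acod1 was above every LPS library while Saa3 was at 0 and 2.

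At 16 against 3 months Acod1 rose by 3.12 (SE 0.74, limma adjusted p = 0.0083), Clec4e by 2.60 (SE 0.53, limma adjusted p = 0.0028) and Plaur by 1.74 (SE 0.29, limma adjusted p = 0.00047) on the log2 scale. Slpi (1.78, SE 0.60), Hp (1.70, SE 0.58) and Saa3 (1.49, SE 0.97) did not pass (limma adjusted p = 0.055, 0.054 and 0.324). Thus 3 of the 6 genes passed upward, against 3.01% of all genes, and Clec4e and Plaur did not overlap with 3 months, which held for 4.94% of all genes. Without 16-month replicate 1, and also after median-ratio scaling, with a pseudocount of 5 or with these groups fitted alone, Slpi and Hp passed as well (limma adjusted p over the alternatives 0.0148 to 0.165 and 0.00669 to 0.145). That scaling turned the calls of all genes from 170 of 509 upward into 286 of 390. At 14 months Plaur alone passed (log2 fold change 1.25, SE 0.29, limma adjusted p = 0.018), beside 1.2% of all genes upward, but not without 3-month replicate 2 or 4 (limma adjusted p = 0.057 and 0.077, range over 19 alternatives 0.00219 to 0.0766).

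At 6, 9, 12 and 24 months 0 of the 6 genes passed with limma, whereas 0.195%, 0.336%, 1.31% and 1.56% of all genes did so upward. At an unadjusted p under 0.05 were 0, 0, 1 and 1 of them, Plaur in both cases, with log2 fold changes of 0.84 (SE 0.30) at 12 months and 0.84 (SE 0.33) at 24 months. As 11.4%, 21.3%, 27.6% and 18.9% of all genes were under that p, these counts were no higher than the background. At 24 months Clec4e (4, 4 and 3) overlapped with 3 months again, and Acod1 (2, 1 and 0) overlapped as it had at 16 months. Plaur, at 62, 39 and 39, was above every 3-month value (19 to 29) and passed with these groups fitted alone (limma adjusted p = 0.0238, range over 17 alternatives 0.0238 to 0.487). Replicate 1 stood apart with 159 for Slpi and 62 for Hp. Across the 7 ages Acod1, Clec4e and Plaur passed the limma F-test (limma adjusted p = 0.0084, 0.0089 and 0.0035), each with its largest change at 16 months, and 5.21% of all genes passed with their largest change upward. The 3-, 14- and 24-month females are also the controls of the LPS comparisons, so that the changes with age and with LPS share libraries.

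In the 16-month females the neutrophil sum was higher in replicates 2, 3 and 5, where Acod1 and Clec4e were high, than in replicates 1 and 4. The monocyte sum of replicate 2 was below that of replicate 4, and Saa3 followed neither sum. The summed neutrophil markers were 2779, 9247, 16013, 6766 and 13124 in replicates 1 to 5 and the summed monocyte markers 481, 798, 1631, 865 and 1263. Between 16 and 3 months 0 of the 17 neutrophil and 2 of the 9 monocyte markers rose, 2 of 3 measured T and NK cell markers rose and 6 of 10 microglial markers fell. The microglial sum was 24857 to 26494 at 3 and 15493 to 21124 at 16 months. That of the T and NK cell markers was 24 to 36 and 37 to 145, and at 24 months, when Acod1 and Clec4e were low, 183 to 285. The 3-month females, with neutrophil sums of 7201 to 19053, had Acod1 at 2 or below and Clec4e at 5 or below. The part of these cells in the change at 16 months was not tested.

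In the PBS-treated males all 6 genes had their highest mean at 16 months. Acod1 stood at 0, 0, 0.5 and 0 at 3 months, at 0, 0.05, 2 and 0.08 at 6 months, at 0, 0, 0.47 and 0.37 at 9 months and at 3 and 0 at 12 months. It then stood at 66, 77, 140 and 60 at 16 months, at 9, 52, 12, 41 and 8 at 19 months and at 2, 26, 9 and 17 at 24 months. Its 16-month values were thus apart from those of every other male age, while 19 and 24 months overlapped. Saa3 is listed at 0 in all males of 3 and 6 months, stood at 0.11, 0, 0.2 and 0 at 9 months and at 7 in both males of 12 months. It stood at 10, 78, 145 and 98 at 16 months, at 31, 120, 81, 58 and 24 at 19 months and at 11, 10, 6 and 6 at 24 months. For Saa3 the 16- and 19-month values overlapped, and the 24-month values lay around those of 12 months. They also lay below every 19-month value, as did 0.567% of all genes, but Saa3 was chosen on that step and nothing is read from it.

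Clec4e stood at 3, 9, 11 and 3 at 3 months, at 7, 3, 3 and 5 at 6 months and at 2, 2, 2 and 1 at 9 months. At 12 months it stood at 20 and 12, at 16 months at 73, 84, 89 and 60, at 19 months at 31, 61, 29, 38 and 20 and at 24 months at 14, 27, 28 and 24. Every male from 12 months on was thus above every younger male, and the neighbouring later ages overlapped except 12 and 16 months. Slpi ranged from 14 to 24, 13 to 19 and 6 to 11 at 3, 6 and 9 months and was at 56 and 34 at 12 months. It reached 126, 217, 126 and 117 at 16 months and stood at 102, 95, 50, 109 and 69 at 19 months and 33, 60, 53 and 58 at 24 months. The 16-month Slpi values lay above those of all other male ages.

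Plaur and Hp, the most abundant of the 6 genes, followed the same course with smaller folds. Plaur ranged from 20 to 45, 27 to 44 and 19 to 27 at 3, 6 and 9 months, and was at 52 and 70 at 12 months. It stood at 171, 257, 165 and 119 in the 16-month males, at 111, 127, 93, 119 and 82 in the 19-month males and at 63, 107, 80 and 78 in the 24-month males. Of the later ages, neighbours in this order overlapped for Plaur, except 12 and 16 months. Hp was at 34, 34, 38 and 26 at 3 months, ranged from 16 to 26 at 6 months and was at 14, 14, 13 and 13 at 9 months. It stood at 155 and 97 at 12 months, at 174, 312, 172 and 156 at 16 months, at 111, 159, 107, 163 and 91 at 19 months and at 53, 77, 88 and 105 at 24 months. For Hp the 12- and 19-month values overlapped, and the highest 12-month value lay just below the lowest 16-month value.

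Against 3 months, every male library was higher for 5 of the 6 genes at 12 months, all but Acod1, and for 6 of 6 at 16, 19 and 24 months, where 10.4%, 7.7%, 4.16% and 6.16% of all genes did so. From 12 to 16 months this held for 6 of 6 genes and for 11.2% of all genes. Since the members were chosen from comparisons among these males, partly on this step, nothing is read from these counts or those against 3 months. The ratio of the 16- to the 12-month mean was 57.2 for Acod1, 11.8 for Saa3, 4.78 for Clec4e, 3.26 for Slpi, 2.92 for Plaur and 1.62 for Hp. At 9 months Clec4e, Slpi and Hp lay below every 3-month value, as 1.42% of all genes did, and as Hp was chosen on this step nothing is read from its place there. In the 2 males of 3 months that lack values between 0 and 1, Saa3 and Acod1 are listed at 0 and Clec4e was at 3 and 9. In the same males Slpi was at 14 and 17, Plaur at 20 and 45 and Hp at 34 in both. The males from 12 months on lack such values too, except for 1 library. With only 2 young libraries in this set, and members chosen among these males, nothing is read from it.

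The summed neutrophil and monocyte markers were higher in every male from 12 months on than in every younger male. The neutrophil sum was 2928 to 4861 at 3 months, 1427 to 1989 at 9 months and 7975 and 12995 at 12 months. It was 9549 to 32961 at 16 months, 7517 to 13872 at 19 months and 5847 to 10949 at 24 months. The highest sum came from 16-month replicate 2, the male with the highest Slpi, Plaur and Hp, and the lowest of that age from replicate 3, the male with the highest Saa3, Acod1 and Clec4e. The sum of the 16-month males overlapped with that of the 12-month males, whose Acod1 was at 3 and 0. The monocyte sum was 358 to 551, 266 to 326 and 892 to 975 at 3, 9 and 12 months and 846 to 1876 at 16 months. The microglial sum was 22444 to 24997 at 3 months, 23693 to 25495 at 9 months and 14675 to 18121 at 16 months. The part of these cells in the male levels was not tested.

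**Figure D3:**
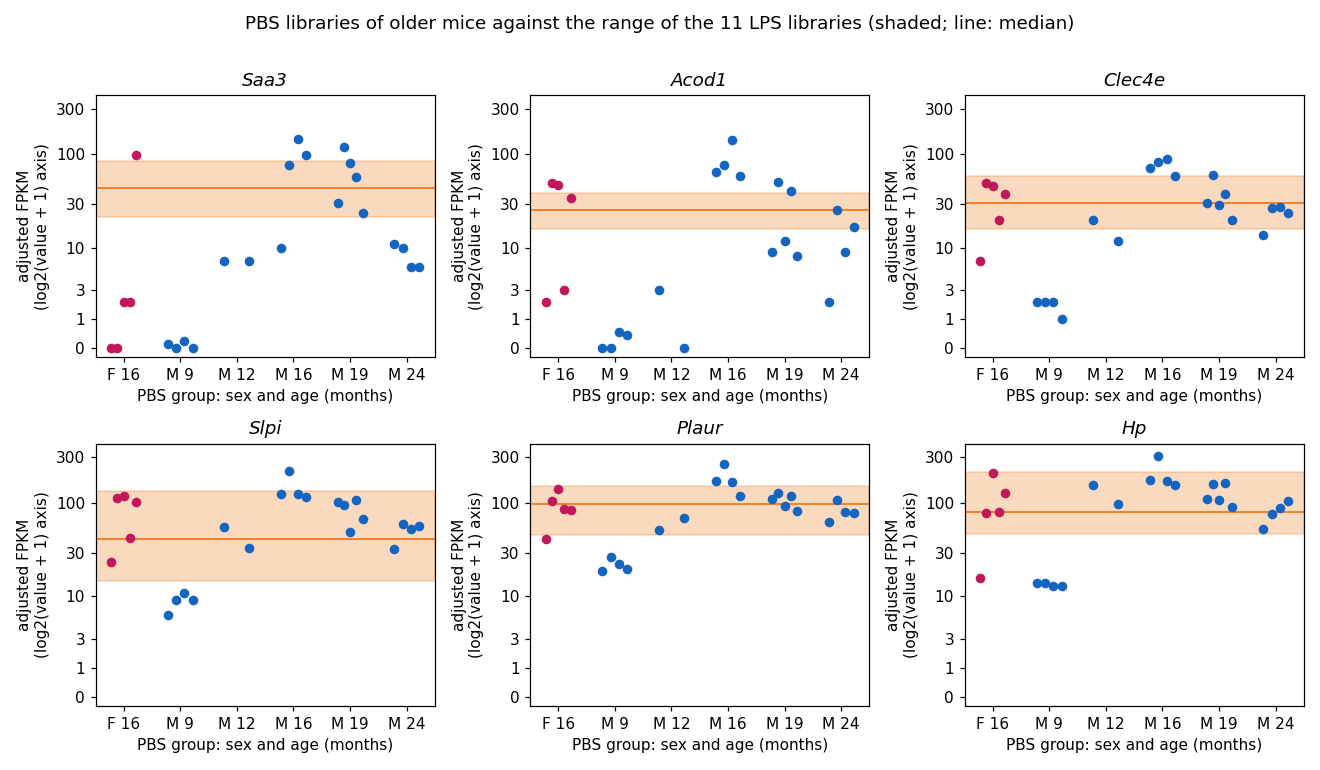
Adjusted FPKM (y axis, spaced as log2(value + 1)) in PBS-treated 16-month females (F) and in males (M) of 9 to 24 months, 1 point per mouse, against the range of the 11 LPS libraries (shaded, with their median as a line). All 4 males of 16 months lie above the LPS range for Acod1 and Clec4e, and all 4 males of 24 months lie below it for Saa3.

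Most males of 16 and 19 months, which had received PBS, had levels in or above the range of the females collected 2 hours after LPS, but 1 of 16 months was below it for Saa3, at 10, and 3 of 19 months for Acod1, at 9, 12 and 8. Over the 11 LPS libraries the lowest, median and highest values were 22, 44 and 86 for Saa3, 16, 26 and 39 for Acod1 and 16, 31 and 59 for Clec4e. They were 15, 42 and 135 for Slpi, 46, 97 and 152 for Plaur and 47, 81 and 209 for Hp. At 16 months all 4 males exceeded the highest LPS value for Acod1 and Clec4e, 3 for Plaur, 2 for Saa3 and 1 each for Slpi and Hp. At 19 months all 5 males reached the lowest LPS value for every gene but Acod1, where 2 did so and were above the highest. At 24 months 0 of 4 males reached it for Saa3, 2 for Acod1, 3 for Clec4e and 4 each for Slpi, Plaur and Hp. The LPS libraries are from females only and from other ages. They all held values between 0 and 1, which all males of 16 months and 4 of the 5 of 19 months lacked. Sex, age, this property of the libraries and treatment therefore cannot be told apart in this comparison.

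As ratios of means, the 16-month males stood at 2.32 times the 3-month LPS females for Saa3, 3.90 times for Acod1, 2.34 times for Clec4e, 5.78 times for Slpi, 2.18 times for Plaur and 2.75 times for Hp. The 19-month males stood at 1.76, 1.11, 1.10, 3.36, 1.30 and 1.71 times the 3-month LPS females in the same order. Against the 14-month LPS females they stood at 1.17, 0.904, 1.48, 1.17, 0.850 and 1.09 times and against the 24-month LPS females at 1.42, 0.882, 0.784, 1.50, 1.64 and 1.07 times, so that Acod1, Clec4e and Plaur were below some LPS means. Against the 14-month LPS females the ratios at 16 months were 1.54, 3.18, 3.16, 2.02, 1.42 and 1.76 in the same order, and against the 24-month LPS females 1.87, 3.10, 1.68, 2.59, 2.74 and 1.72. The 16-month males lay wholly above the 3-month LPS females for all genes but Saa3, above those of 14 months for Acod1 and Clec4e, and above those of 24 months for Acod1, Clec4e, Slpi and Plaur, whereas 7.79%, 4.27% and 4.62% of all genes did so. Saa3 overlapped with every LPS age. Acod1, Clec4e, Slpi and Plaur were chosen on their rise in the 16-month males, so nothing is read from this comparison with all genes.

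Counted by mouse, 6 of 53 PBS libraries reached the lowest LPS value for all 6 genes. They were 3 of the 4 males of 16 months, 2 of the 5 males of 19 months and 16-month female replicate 5. A further 8 libraries reached it for 5 genes. Among them were the remaining 16-month male and females 2 and 3 of 16 months, short in Saa3 alone, and 3 males of 19 months, short in Acod1 alone. Slpi did not separate LPS from control, since 42 of 53 PBS libraries reached its lowest LPS value. The lowest LPS value was reached by 30 of them for Plaur, 26 for Hp, 17 for Clec4e, 11 for Acod1 and 9 for Saa3. As the genes were chosen among the males, nothing is read from these counts.

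Set side by side at matched ages, males and females overlapped for all 6 genes at 3 and 6 months and separated for some from 9 months on, which is given without a test. At 9 months Clec4e was lower in every male (1 to 2) than in every female (3 to 12), as were 2.3% of all genes. At 12 months every male was above every female for Saa3, Clec4e, Slpi and Hp, with 155 and 97 against 24 to 59 for Hp, and for 7.69% of all genes, with only 2 males at this age. At 16 months this held for Acod1 (60 to 140 against 2 to 50) and Clec4e (60 to 89 against 7 to 50), and for 1.36% of all genes. At 24 months it held for Clec4e (14 to 28 against 3 to 4) and Plaur (63 to 107 against 39 to 62), and for 4.75% of all genes. The genes were chosen from the male ageing comparisons, Acod1 and Clec4e among those higher at 16 than at 12 months. Nothing is therefore read from these counts. At 12 and 24 months every male library lacked values between 0 and 1 and every female library held some. Sex and this property of the libraries cannot be told apart at these ages.

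The 6 genes varied together across the libraries, more by group than within groups. Over the 64 libraries Pearson's r of log2(value + 1) between pairs of them lay between 0.687 (Saa3 and Slpi) and 0.898 (Clec4e and Hp), with a median of 0.832. After the mean of its group was taken off each value, r lay between 0.174 (Saa3 and Plaur) and 0.819 (Slpi and Hp), with a median of 0.528. The libraries share age, sex, treatment and, for some, the lack of values between 0 and 1, and these values carry no test. Within groups Saa3 was the least like the others, with r of 0.37 at most.

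**Figure D4:**
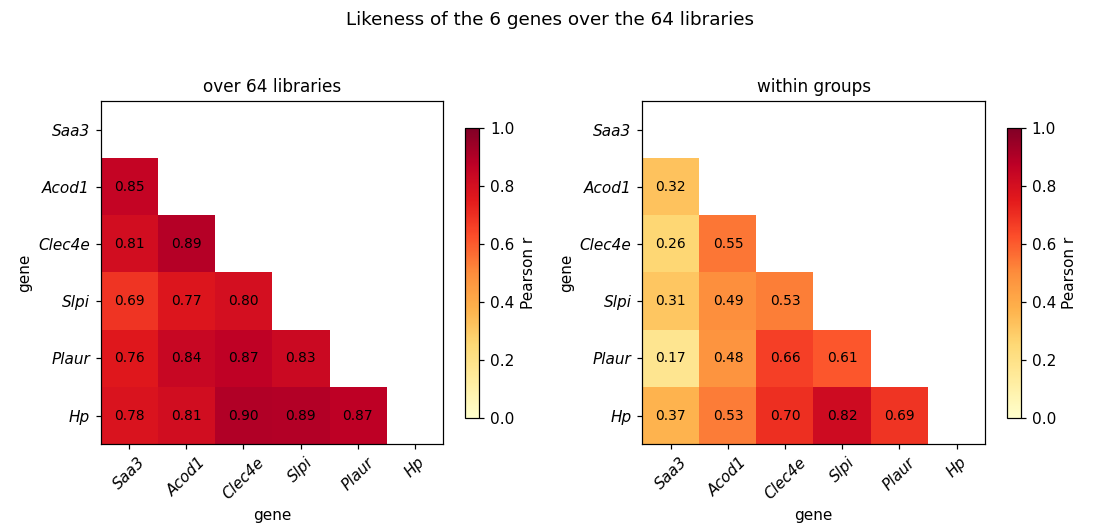
Pearson r of log2(value + 1) between pairs of the 6 genes over 64 libraries, for all values (left) and after group means were taken off (right), on a colour scale from 0 to 1. The left values run from 0.687 to 0.898 and the right values from 0.174, for Saa3 and Plaur, to 0.819, for Slpi and Hp.

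The 3 genes most like each of them over the 64 libraries were partly shared. Il1rn, which encodes an antagonist for IL-1 receptors, and Srgn, the granule proteoglycan serglycin, were among the 3 closest for Saa3 (r = 0.821 and 0.809), Acod1 (0.915 and 0.876), Clec4e (0.900 and 0.921) and Plaur (0.896 and 0.893), with Acod1 itself (0.848) closest to Saa3 and Lilr4b (0.881) next for Plaur. For Slpi they were Hp (0.894), Anxa2 (0.888), an annexin, and Lrg1 (0.855), and for Hp they were Hdc (0.900), which makes histamine, Clec4e (0.898) and Mxd1 (0.895). Within groups, the closest to Slpi and to Hp was Ifitm6 (0.842 and 0.868), followed by Hp (0.819) and Chil3 (0.800) for Slpi and by Chil3 (0.852) and Gsr (0.850) for Hp. The closest to Plaur were S100a8 (0.750), Cd44 (0.746) and S100a9 (0.736), of which the S100 genes encode the calprotectin of neutrophils. Cd44 was the closest to Acod1 (0.646) and Clec4e (0.744), followed by Il1rn (0.608) and Ifitm2 (0.590) for Acod1 and by Lilrb4a (0.742) and Lgals3 (0.706) for Clec4e. For Saa3 no gene exceeded 0.526 (Pirb), with Oas1a (0.509) and Fpr1 (0.480) next.

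Within groups, r with the mean log2 value of the 17 neutrophil markers was 0.788 for Hp, 0.723 for Plaur, 0.684 for Slpi, 0.622 for Clec4e, 0.380 for Acod1 and 0.171 for Saa3 (64 libraries). With the 9 monocyte markers it was 0.809, 0.579, 0.737, 0.672, 0.407 and 0.370. With the 10 microglial markers r was negative for all 6 genes, from −0.138 for Clec4e to −0.465 for Plaur within groups and from −0.536 for Saa3 to −0.756 for Plaur over the libraries. Ifitm6, close to Slpi and Hp above, is itself among the neutrophil markers, and Chil3 among the monocyte markers. The order of the genes, with Hp at the upper and Saa3 at the lower end, is a description of these libraries.

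**Figure D5:**
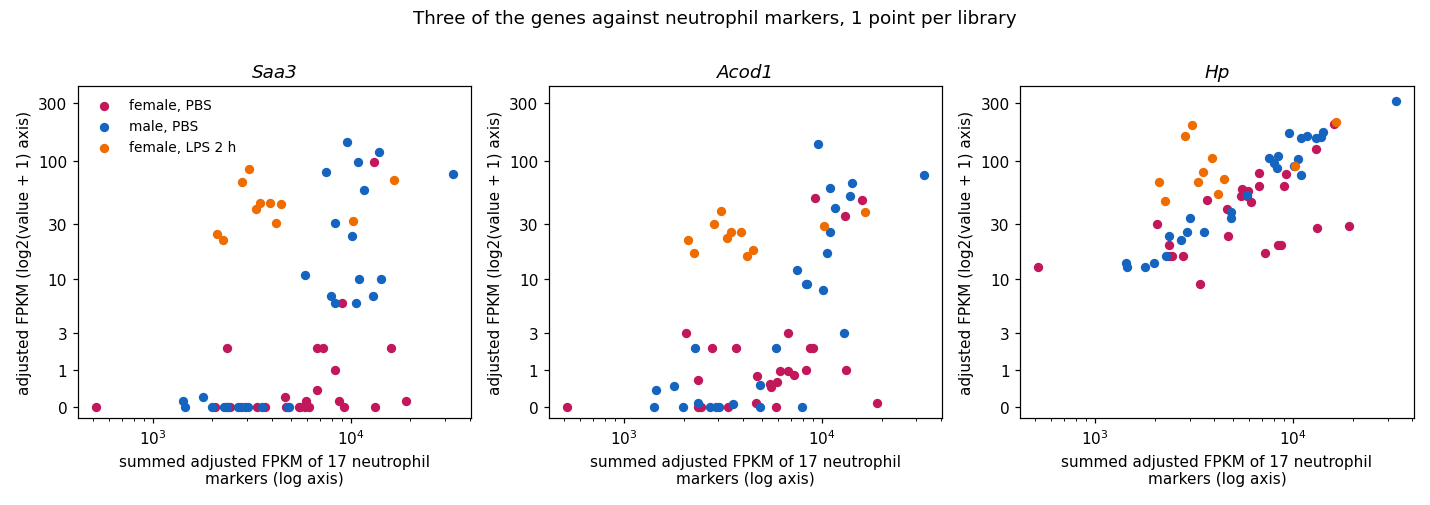
Adjusted FPKM of Saa3, Acod1 and Hp (y axis, spaced as log2(value + 1)) against the summed adjusted FPKM of 17 neutrophil markers (x axis, log scale), 1 point per library, for PBS females, PBS males and LPS females. The 3-month LPS libraries have Saa3 at 22 to 45 at neutrophil sums of 2251 to 3905, whereas the 3-month PBS females have Saa3 at 2 or below at sums of 7201 to 19053.

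Of the pathways around these genes, the targets of TLR4 and NF-kB had the most members that rose with LPS at 3 months. Of 44 listed genes 39 were measured, and 32 rose and 0 fell with LPS at 3 months (median log2 fold change 1.49), 9 rose and 0 fell at 14 months (0.58), and 10 rose and 0 fell at 24 months (0.56). At 16 against 3 months in PBS-treated females 20 rose and 1 fell (0.88), and at 24 against 3 months 4 rose (0.44), whereas the medians of all genes were −0.18 and −0.02. Il1rn rose by 3.94 (SE 0.33), Cxcl10, an interferon-induced chemokine, by 3.21 (SE 0.39), Ccl5 by 3.11 (SE 0.37) and Ccl12 by 2.77 (SE 0.61) with LPS at 3 months. Il1rn, the closest to Acod1, also rose by 2.85 (SE 0.27) and 3.22 (SE 0.35) with LPS at 14 and 24 months and by 3.53 (SE 0.54) at 16 against 3 months. It stood at 57 to 73 in the 3-month LPS libraries, at 9 to 138 in the 16-month females and at 118 to 331 in the 16-month males. At 24 against 3 months Ccl5 (1.86), Gadd45b (1.43), Tnf (1.14) and Cxcl16 (0.95) rose. In this list Bcl2a1a, Bcl2a1b and Bcl2a1d are near-identical copies, whose reads the counting may have split.

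The acute-phase and antimicrobial genes did not move as 1 group. Of 12 measured, 4 rose and 6 fell with LPS at 3 months, 2 rose and 0 fell at 14 months and 5 rose and 0 fell at 24 months. Among all genes that passed, 348 of 635 rose at 3 months, 79 of 102 at 14 months and 241 of 548 at 24 months. Socs3, which restrains cytokine signalling, rose by 2.43 (SE 0.41) at 3 months, whereas Ltf fell by 2.72 (SE 0.57), Ngp by 2.39 (SE 0.55) and Camp by 2.32 (SE 0.54), all of which encode granule proteins of neutrophils and are also among the neutrophil markers above. At 16 and at 24 against 3 months 0 of the 12 passed. In the males of 16 against 3 months, described without a test, their median difference on the log2 scale was 1.77 and Lcn2 was the highest at 2.38, while the median of all genes was 0.0.

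The genes next to Acod1 in metabolism changed little. The 13 measured genes were those of the citrate cycle, citrate export and the Nrf2 pathway, the last being Nfe2l2, Keap1 and Hmox1. Of these, 0 rose and 2 fell with LPS at 3 months, Idh1 by 0.84 (SE 0.22) and Idh2 by 0.59 (SE 0.15). At 14 and 24 months 0 passed. Idh2 fell by 0.83 (SE 0.15) at 16 against 3 months, and 0 passed at 24 against 3 months. Of 16 C-type lectin receptors and signalling genes Clec4d, a lectin receptor that pairs with Mincle, rose by 1.94 (SE 0.53) and Clec4a1 by 0.84 (SE 0.26) at 3 months. In this list 0 passed at 14 months, 2 rose at 24 months, 0 passed at 16 against 3 months and Clec7a rose by 1.56 (SE 0.38) at 24 against 3 months. In the 16-month males Clec4d was 3.36 above its 3-month mean on the log2 scale.

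Of 6 measured serine protease inhibitors and targets, Wfdc17 rose by 1.88 (SE 0.33) with LPS at 3 months and by 1.54 (SE 0.39) at 16 against 3 months. With LPS 0 of them passed at 14 months and 2 rose at 24 months, and at 24 against 3 months Cstb rose by 0.89 (SE 0.18) and Elane, the target of Slpi, fell by 3.62 (SE 0.86). Of 9 genes of the urokinase system Itga5 rose by 1.50 (SE 0.33) and Mmp9, a protease of neutrophil granules, fell by 2.79 (SE 0.71) with LPS at 3 months, Anxa2 rose by 1.13 (SE 0.34) at 16 against 3 months, and 0 passed with LPS at 14 and 24 months or at 24 against 3 months. Of 11 genes that handle haemoglobin, haem and iron, Fth1, the ferritin heavy chain, rose by 0.89 (SE 0.16) and the iron exporter Slc40a1 fell by 0.86 (SE 0.26) with LPS at 3 months. Both changed likewise at 16 against 3 months, by 0.92 (SE 0.14) and −1.16 (SE 0.22). In this list 0 passed with LPS at 14 months, 2 fell at 24 months, and Fth1 rose by 0.72 (SE 0.16) at 24 against 3 months. Of 19 immediate early genes, which respond to cell handling as well as to LPS, 1 rose and 5 fell at 3 months, with Ier2 at 0.72 and Fosb, Rhob and Jun at −1.27, −1.03 and −0.88. At 14 and 24 months 1 and 6 fell and 0 rose, 3 fell at 16 against 3 months, and 3 rose at 24 against 3 months, Hspa1a (1.04), Dusp1 (0.97) and Atf3 (0.88).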

How the data were processed

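Bulk RNA-seq of sorted microglia was analysed in 64 libraries of 17 groups, defined by sex, treatment and age as the sample titles give them, with 1 mouse per library. Per the submitters' processing notes and the study's methods, reads cleaned with SOAPnuke were aligned by the authors to mm10 (HISAT2 2.0.4) and to coding genes (Bowtie2 2.2.5). They computed FPKM with RSEM 1.2.12. The authors next adjusted all libraries together with ComBat_seq, for batches the sources used here do not name, and removed genes averaging under 10 FPKM. The deposited values are therefore scores, adjusted FPKM that are whole numbers except for 297 values, and not counts. Sequencing depth is unknown, so no counting interval was computed, and the count-based test of the study was replaced by limma. Adjustment for batches can move both levels and differences between groups, by an amount that cannot be seen in these files.

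Values were taken as log2(value + 1) without scaling and compared in R 4.3.3 by limma 3.58.1 with statmod 1.5.0, moderating variances along their trend with the mean, over the 6 groups of the LPS experiment together and over the 7 PBS groups of females together. Benjamini-Hochberg adjustment ran over all 5647 genes. Passing required an adjusted p below 0.05 together with more than 1.5-fold change. Ages were compared in their LPS response as interactions. Male levels, the sexes and males against LPS were described only. Tables and figures were made with Python 3.11.15, numpy 2.4.6, pandas 2.3.3 and matplotlib 3.10.9. Simulated data with the design of these groups were used to test the fits.

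The 6 genes, the gene lists and the comparisons were chosen with earlier results of these data known. Beside the 6 genes, the text names the 3 genes most like each of them over the 64 libraries and within groups, up to 4 genes with the largest change in each list that passed with LPS at 3 months or at 24 against 3 months in females, and the markers P2ry12, S100a8, S100a9, Ly6g, Mpo, Elane, Ly6c2 and Ccr2. Other genes, among them those named at 16 against 3 months, were chosen after their values were seen. Libraries with the same replicate number did not deviate together (median r of residuals 0.014 in the LPS experiment and 4.3e-05 in the PBS females) and were not paired. The alternatives were other pseudocounts (0.5 and 5), a filter at a mean of 50, median-ratio and total scaling, other variance models, the adjusted p alone, the groups compared fitted alone, a block for the replicate number, and fits without each single library.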

Additional observations from a re-analysis of the deposited data

Results flagged for a closer look

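Values that stood apart from the rest of their group, by the ratio of the gap to the next value to the range on the log2(value + 1) scale, were found in 9 of 64 combinations of gene and group. Chance gives about 1 in 20. Of these, 5 are at or below 2 adjusted FPKM in genes near 0, where the step between whole numbers is as large as the spread. They were Saa3 at 2 in 3-month female replicate 4 and at 0.21 in 12-month female replicate 1, Acod1 at 0.5 in 3-month male replicate 3 and at 2 in 6-month male replicate 3, and Clec4e at 1 in 9-month male replicate 4. Clec4e at 0.92 in 14-month PBS female replicate 2 is the value on which the difference between the 24- and 14-month LPS responses of that gene turned. Saa3 at 98 in 16-month female replicate 5 was above all 11 LPS libraries, while the other 4 females of that age were at 2 or below. Slpi at 217 and Hp at 312 in 16-month male replicate 2 were the highest values of these genes in the table, in the library with the highest neutrophil sum of all 64 (32961). The part of such cells in these values was not tested.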

How the results depend on the processing

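The numbers of the 6 genes that passed upward moved as follows. With only genes of a mean of 50 or more, Plaur and Hp alone are tested, and 2, 2 and 1 passed with LPS at 3, 14 and 24 months and 1 across the 7 female ages. At 16 against 3 months 5 in place of 3 passed with a pseudocount of 5, after median-ratio scaling and with the groups compared fitted alone. With the groups fitted alone 1 passed at 12 and 1 at 24 against 3 months, and 1 at 12 months after median-ratio scaling. Leaving out 1 library in turn gave 4 genes throughout for LPS at 3 months, 4 to 5 at 14 months, 3 to 4 at 24 months, 3 to 5 at 16 against 3 months, 0 to 1 at 14 against 3 months, 2 to 4 across the 7 ages and 0 to 1 for the LPS response of 24 against 14 months. The Slpi change with LPS at 24 months, which did not pass, turned to −0.24 without PBS replicate 3 and reached 1.92 without PBS replicate 1. With the replicate number as a block, 4 genes passed with LPS at each of the 3 ages, 3 at 16 against 3 months and 3 across the ages, and it changed none of these counts. The cause of the other changes was not tested. Of the other alternatives run on these counts, 119 left them within 1.5 times, as did 137 of those leaving out 1 library.

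The numbers of reads are unknown, groups held 2 to 5 mice, and all 16-month mice and most of the older males belong to the libraries without values between 0 and 1, so age and this property of the libraries cannot be told apart within the 16-month groups. That LPS was given to females only, in libraries that all held values between 0 and 1, limits what the male levels can be set against.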
